A study of Mus musculus with 6 samples.

Results

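Cells of a genotype that the labels write as Oct1_cKO (cKO here, read as conditional knockout) were compared with cells of the parental genotype at day 6 of a differentiation of mouse embryonic stem cells (ESC) towards mesoderm. The cells compared were the barcodes with UMIs (unique molecular identifiers, each counting 1 captured transcript) of at least 1000 genes and with at most 10% of UMIs from mitochondrial genes. That left 1546 of 2561 parental and 1650 of 2530 cKO barcodes, 3196 of the 7096 cells kept in all 6 libraries of the series. Both genotypes went through the same protocol: plating on gelatin (0.1%), then 2 days of the signalling protein Bmp4 in N2B27 medium, then 4 days in a DMEM-based medium that held Rspo3, an amplifier of Wnt signals, and the BMP receptor blocker LDN-193189. After trypsin treatment single cells were captured with a 10x Genomics 5′ kit. The labels do not say which part of the gene was deleted, when or by which driver, how many clones were used, or what the ESC, called depleted in the series' text, were depleted of. Each genotype is 1 library, so no difference has a replicate check and no p-value is given. Values describe these 2 libraries, and the 95% intervals of levels, ratios and shares cover counting error only.

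Oct1, encoded by Pou2f1, is a widely expressed POU-domain transcription factor that binds the octamer ATGCAAAT, a site it shares with its relative Oct4, the pluripotency factor. The series title names the question, how Oct1 acts with the Smad factors, which carry BMP and TGF-beta signals into the nucleus, in the specification of mesoderm. In the embryo, mesoderm leaves the primitive streak, and its paraxial part segments into somites, which form vertebrae and skeletal muscle. Neural tube and surface ectoderm, the epithelium that becomes skin, come from the neighbouring ectoderm, and axial progenitors can give rise to spinal cord as well as somites. High Wnt and low BMP signalling are the conditions used in culture to favour presomitic mesoderm.

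The kept parental cells held 69274012 UMIs (median 36219 per cell) and the kept cKO cells 68286951 (median 30925), and no kept barcode was found in both libraries. Clusters 1 and 6 of the joint clustering, whose median depth was under 0.333 of their libraries', took up 21.5% of the parental cells and 36.9% of the cKO cells. They stayed unnamed. Doublets were not removed. The libraries also differed in the balance of whole chromosomes, as shown by a score per cell: the log2 share of UMIs from chromosomes 1, 6 and 8 minus that from chromosome 11, against the median cKO cell. Of the parental cells, 471 (30.5%) lay above 0.25, with chromosomes 1, 6 and 8 high, 803 (51.9%) below the negative of that limit, with chromosome 11 high, and 272 in neither range. Of the cKO cells 53 (3.21%), 150 (9.09%) and 1447 did. The limits cut a continuous score, and 82 parental and 159 cKO cells lay within 0.05 of one. 3 genes of the Y chromosome, Ddx3y, Eif2s3y and Uty, were at least 2-fold higher in the cKO library, with Eif2s3y at 41.5 and 133 CPM. CPM are the UMIs of a gene, scaled so that each library sums to 1000000, with parental given first. The groups of the parental library also differ in cell type, so the main results are given by chromosome group further on, and the part of the chromosome balance in the others was not tested. Of the marker lists of cell types that a culture could carry along, macrophage genes summed to 0.895 and 1.73 CPM in parental and cKO, with 1 and 2 of 6 markers at 0, and fibroblast genes to 178 and 89.0 CPM, with none of 7 at 0.

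**Figure D1:**
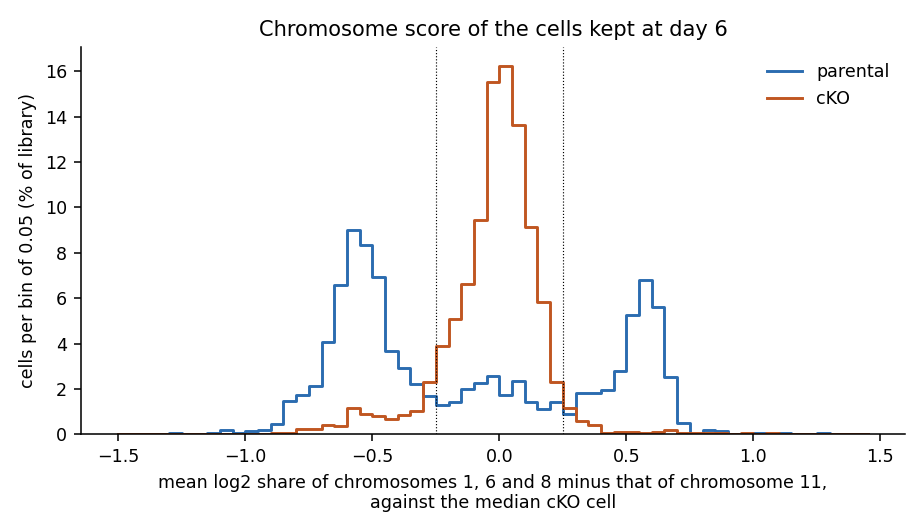
Chromosome score of each kept cell (x axis, log2 units against the median cKO cell) as the percentage of the library's cells per bin (y axis), for the parental and the cKO library. Most cKO cells lie between the limits, and most parental cells lie outside them, in 2 separate ranges.

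The labels call both samples cells differentiated toward the mesodermal lineage, and clustering of the 2 libraries together gave a somite-like class. It held 14.4% of parental (222 cells; 95% Clopper-Pearson interval 12.6 to 16.2) and 14.2% of cKO cells (235; 12.6 to 16.02), and 198 parental and 148 cKO cells at a finer clustering (Leiden resolution 1.2). The neural-like class held 32.5% of parental cells (502; 30.1 to 34.9) and 0.727% of cKO cells (12; 0.376 to 1.27), and the neuron-like class 5.17% (80; 4.12 to 6.399) and 0.364% (6; 0.134 to 0.790). The epithelium-like class held 13.001% of parental (201; 11.4 to 14.8) and 39.9% of cKO cells (658; 37.5 to 42.3). A pluripotent-like class held 6.73% and 1.82%, an axial-like class 0.776% and 2.97%, an endoderm-like class 7 and 18 cells, and an erythroid-like class 8 parental cells and no cKO cell. The remaining 410 parental and 642 cKO cells were unnamed. The classes are rebuilt from marker genes that differ between the libraries, so their sizes are given as a description. Of the 2 epithelium-like clusters, cluster 4 (160 parental and 321 cKO cells) was led by Krt8 and Krt18 but also by the muscle genes Acta1 and Tnnc1, and cluster 8 (41 and 337) by Cd9, Tchh and Fgfbp1. Where nearly all cells of a cluster come from 1 library, a type and a library cannot be told apart.

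Pou2f1 (ENSMUSG00000026565) measured 30.9 CPM in the parental and 16.04 CPM in the cKO library, a log2 ratio of −0.95 (−1.05 to −0.84). A tag at the 5′ end is counted whether or not a part further down the gene was deleted, so this value does not measure the deletion. Pou2f1 lies on chromosome 1, and in parental cells it was 37.2 CPM with chromosomes 1, 6 and 8 high, 24.997 CPM with chromosome 11 high and 36.97 CPM in neither group. In cKO cells it was 23.95, 16.3 and 15.9 CPM, each lower than in the parental group of the same name. The levels were closer within somite-like (27.9 and 21.9 CPM (−0.35)) and epithelium-like cells (23.6 and 15.2 CPM (−0.64)), and not within pluripotent-like cells (28.4 and 12.6 CPM (−1.18)). The shares of thinned cells with a UMI in the former 2 classes were 13.2% and 12.8%, and 8.96% and 7.06%, against 17.1% of parental neural-like cells. Of the other POU genes, 3 of the 5 compared members of the family were at least 2-fold lower, Pou3f2, Pou3f3 and Pou5f1, and 1 was higher, Pou3f1, a factor of epiblast and of keratinocytes, at 39.2 and 152 CPM (1.96).

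Of 31053 genes, 9602 reached a mean of 5 CPM over both libraries and were compared. In the cKO library 486 (5.06%) were at least 2-fold higher and 524 (5.46%) at least 2-fold lower, and 51 and 122 passed 4-fold. The ratio stayed under 1.5-fold for 74.8% of the genes, and the median log2 ratio of cKO over parental was −0.04. The same count gave 106 higher and 176 lower of 8939 genes in ESC and 20 and 39 of 8695 at day 3.

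**Figure D2:**
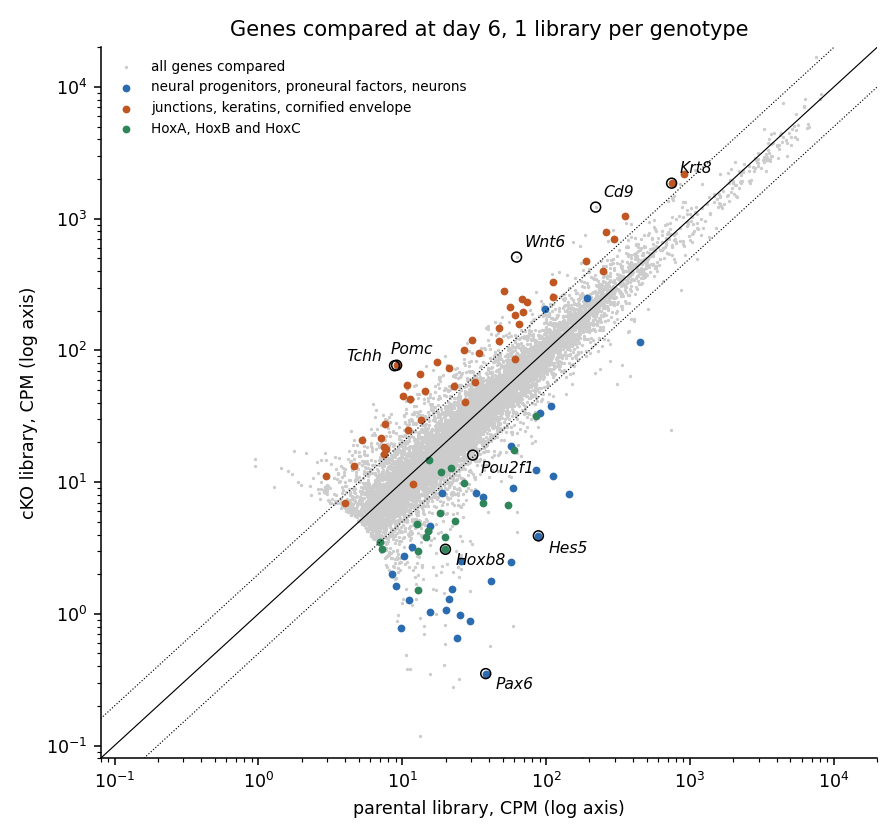
CPM of each compared gene in the parental (x axis, log scale) and the cKO library (y axis, log scale), with the 2-fold limits as lines. Coloured are the compared members of the neural progenitor and neuron lists, of the junction, keratin and cornified lists, and of HoxA, HoxB and HoxC. Wnt6 (62.3 and 511 CPM) and Cd9 (221 and 1225 CPM) lie above the band, Crabp1 (739 and 24.8 CPM) and Pax6 (38.04 and 0.351 CPM) below it.

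Genes of neural progenitors were lower in the cKO library without exception among those compared. All 18 compared members of a list of 23 passed 2-fold, and their median log2 ratio was −3.05, against −0.04 over all genes. The other 5 lay under the 5 CPM filter. Pax6, a master regulator of neural progenitors and eye, measured 38.04 CPM in the parental and 0.351 CPM in the cKO library, a log2 ratio of −6.76 (−7.403 to −6.18). Sox1, the earliest marker of neural commitment, measured 29.8 and 0.879 CPM (−5.08), Sox3 41.5 and 1.77 CPM (−4.55), Sox21 25.4 and 2.52 CPM (−3.34) and Sox2, which neural and pluripotent cells share, 111 and 11.1 CPM (−3.32). The smallest differences of the list were those of Cdh2, the adhesion protein N-cadherin of neural tube and mesoderm, at 90.6 and 33.3 CPM (−1.44), and of Nes, an intermediate filament, at 107 and 37.7 CPM (−1.51). Ptn, a secreted growth factor, measured 453 and 117 CPM (−1.96). These ratios are of whole libraries. Between cells of both libraries with chromosome 11 high, Sox2 was under 2-fold apart and Pax6 was lower, as given further on. Pou3f3, a POU factor of neural progenitors, lies with the long noncoding RNA Pantr1 on chromosome 1 (mm10; Pantr1 at 42590782 to 42694842 on the minus strand, Pou3f3 at 42695768 to 42703176 on the plus strand), 925 bases apart. Pantr1 measured 58.5 and 0.805 CPM (−6.18) and Pou3f3 24.2 and 0.659 CPM (−5.198).

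The share of cells moved with these levels. With each cell thinned to 5000 UMIs (1301 parental and 1308 cKO cells, 245 and 342 shallower ones left out), UMIs of at least 2 genes of the neural list were found in 59.95% of parental and 16.4% of cKO cells. That is a difference of −43.6 percentage points (−46.8 to −40.2; Newcombe interval). Unthinned, the shares were 76.5% and 42.8%. Pax6 was found in 16.4% of parental and 0% of cKO cells after thinning (0 of 1308 cells, up to 0.229% with a UMI at that depth by 3 counts and 0.282% by the Clopper-Pearson limit). Unthinned, the cKO library held 24 UMIs of Pax6, in 0.667% of its cells, against 2635 UMIs in 34.5% of the parental cells. In parental epithelium-like cells, which should lack it, Pax6 was found in 0.498%, and in parental neural-like cells in 38.5%.

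Genes of neurogenesis followed. Of 14 compared members of a list of 25 proneural and neuronal genes, 12 were at least 2-fold lower and 1 higher, with a median of −2.81. Nhlh2, a factor of newborn neurons, measured 25.3 and 0.981 CPM (−4.69) and Tubb3, a tubulin made by neurons, 144 and 8.14 CPM (−4.15). Elavl3, an RNA-binding protein of neurons, measured 21.05 and 1.303 CPM (−4.01) and Mir124-2hg, the host gene of a neuronal microRNA, 40.7 and 0.571 CPM (−6.16). The exceptions were Gap43, a growth cone protein, at 97.6 and 206 CPM (1.08), and Stmn2, a tubulin regulator, at 194 and 248 CPM (0.35). Both were higher in epithelium-like than in somite-like cells of either library, with Stmn2 at 321 and 283 CPM (−0.18) in the former and 36.7 and 59.8 CPM (0.71) in the latter. The share of cells with at least 2 proneural or neuronal genes depended on the number asked for and on depth. It was 29.5% and 29.4% after thinning to 5000 UMIs, 20.3% and 16.5% at 2500 UMIs, and 13.8% and 5.12% for at least 3 genes at 5000 UMIs.

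Patterning genes of the neural tube showed the same direction. Of 8 compared Zic and Irx genes 7 were at least 2-fold lower (median −1.81), among them Irx3 (58.6 and 9.05 CPM (−2.696)) and Irx5 (63.1 and 4.17 CPM (−3.92)), homeobox factors of the neural tube that lie on chromosome 8. Of 11 compared Notch pathway genes 5 were lower and none higher (median −0.97). They included the ligands Dll1 (12.9 and 1.98 CPM (−2.71)) and Dll3 (24.6 and 9.09 CPM (−1.44)), and the targets Hes5 (88.4 and 3.91 CPM (−4.498)) and Nrarp (19.2 and 5.096 CPM (−1.91)), whereas the target Hes1, active in many tissues, measured 72.3 and 87.95 CPM (0.28). Of 10 compared genes of retinoic acid, the vitamin A derivative that patterns hindbrain and somites, 3 were lower. These were Crabp1 (739 and 24.8 CPM (−4.897)) and Crabp2 (384 and 63.5 CPM (−2.598)), which bind retinoic acid inside the cell, and the receptor Rarb (9.296 and 2.23 CPM (−2.06)). The receptor Rarg was higher at 11.5 and 29.4 CPM (1.35), a gene chosen after its value was seen. Sall1 (17.1 and 2.8995 CPM (−2.56)), Ednrb, a receptor of neural crest cells (29.7 and 1.48 CPM (−4.33)), and Fzd3, a Wnt receptor (39.5 and 5.96 CPM (−2.73)), were lower too.

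To show the sequences that Oct1 could bind near these genes, the octamer ATGCAAAT and its reverse complement ATTTGCAT were searched in the RefSeq promoters of GRCm38.p6, from 250 bases before to 50 bases after the annotated start. The match was found in 16 of 372 promoters of the genes at least 2-fold lower (4.30%) and in 11 of 353 of those higher (3.12%), against 113 of 7578 compared genes (1.49%) and 532 of all 27025 genes in the table (1.97%). Of the 20 lowest genes 15 had a promoter in the table and 2 held the octamer, Sfrp2 and Sox1. Of the 20 highest 14 had one and none held it. Dll1 and Nrarp of the Notch pathway held it as well. Not all of the 16 lower genes with a match are shown. The promoters of Sfrp2, Sox1, Dll1 and Nrarp were picked among the named genes. They combine a match with a level at least 3-fold lower in the cKO library. Each is written 5′ to 3′ on the strand of the gene with the octamer in capitals, the first 3 as the 250 bases before the start, and Sox1 as a window of 30 bases. The first base of the octamer lies 47 bases before the start in Sfrp2 (chr3:83766071-83766320, plus strand), 219 before in Dll1 (chr17:15375824-15376073, minus strand) and 49 before in Nrarp (chr2:25180508-25180757, plus strand). In Sox1 (chr8:12395526-12395555, plus strand) it lies 19 bases after it. A match is a run of letters and not a measured binding site.
Sfrp2: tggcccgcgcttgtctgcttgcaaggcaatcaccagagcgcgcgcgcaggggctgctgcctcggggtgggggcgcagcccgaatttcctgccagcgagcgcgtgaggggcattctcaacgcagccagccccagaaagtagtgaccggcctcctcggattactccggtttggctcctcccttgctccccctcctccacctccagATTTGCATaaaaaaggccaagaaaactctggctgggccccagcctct
Dll1: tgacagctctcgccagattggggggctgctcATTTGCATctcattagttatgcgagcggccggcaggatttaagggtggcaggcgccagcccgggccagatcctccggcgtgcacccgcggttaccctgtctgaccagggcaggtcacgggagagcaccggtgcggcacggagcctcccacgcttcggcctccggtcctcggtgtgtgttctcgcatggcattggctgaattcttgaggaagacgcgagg
Nrarp: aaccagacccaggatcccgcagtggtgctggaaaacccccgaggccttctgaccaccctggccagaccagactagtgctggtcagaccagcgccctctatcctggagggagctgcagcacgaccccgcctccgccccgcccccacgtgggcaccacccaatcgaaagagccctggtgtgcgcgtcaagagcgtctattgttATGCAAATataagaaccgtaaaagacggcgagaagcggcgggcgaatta
Sox1: gccagcgcgccATGCAAATcaccgccgccg

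Sfrp2, a secreted Wnt antagonist, measured 87.97 and 3.65 CPM (−4.59), and was also lower within the somite-like class (15.3 and 4.68 CPM (−1.71)). In that class Nrarp measured 5.71 and 7.21 CPM (0.34) and Dll1 5.08 and 3.91 CPM (−0.38), the latter under the mean of 5 CPM used for comparison.

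Epithelial genes were higher in the cKO library as a group. Of 27 compared members of a list of 30 junction and epithelial adhesion genes, 25 were at least 2-fold higher and none lower, with a median of 1.603. The other 2 stayed under 2-fold, among them Pkp2, a desmosome protein, with a log2 ratio of 0.56, chosen after its value was seen. Perp, a desmosome protein and p53 target, measured 51.2 CPM in the parental and 282 CPM in the cKO library, a log2 ratio of 2.46 (2.41 to 2.51). Dsg2, a desmosomal cadherin, measured 10.1 and 45.4 CPM (2.17), Ocln, a tight junction protein, 5.23 and 20.8 CPM (1.99), and Epcam, an epithelial adhesion protein, 188 and 476 CPM (1.34). Among tight junction claudins, also chosen after seeing the values, Cldn3 measured 55.9 and 213 CPM (1.93), Cldn4 47.2 and 149 CPM (1.66), Cldn6 61.2 and 186 CPM (1.603) and Cldn7 69.1 and 194 CPM (1.49). Cdh1, the cadherin of epithelia, measured 33.95 and 95.9 CPM (1.498), against −1.44 for Cdh2.

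Keratins of simple epithelia were higher for 3 of 5 compared members, Krt7 (67.8 and 245 CPM (1.86)), Krt8 (746 and 1861 CPM (1.32)) and Krt18 (909.6 and 2177 CPM (1.26)), with a median of 1.26. At least 2 keratins were found in 29.6% of the parental cells and 77.4% of the cKO cells, all thinned to 5000 UMIs, a difference of 47.8 points (44.3 to 51.04), and in 46.6% and 86.8% unthinned. Of 13 compared late epithelial and cornified envelope genes 11 were higher and none lower (median 1.57). Tchh, trichohyalin of hair and cornifying cells, measured 9.14 and 77.2 CPM (3.08), Tgm1, the transglutaminase that crosslinks the cornified envelope, 13.2 and 66.7 CPM (2.34), Ahnak2 10.9 and 54.6 CPM (2.33) and Mal, a membrane protein of epithelia, 17.3 and 81.8 CPM (2.24). The calcium-binding S100a6 and S100a11 measured 260.4 and 799 CPM (1.62) and 354 and 1051 CPM (1.57). Keratins of stratified skin lay under the filter: Krt5, Krt14 and Krt1, chosen after seeing the data, measured 0.0289, 0.202 and 0.592 CPM in the parental and 0.0439, 0.117 and 0.351 CPM in the cKO library.

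Transcription factors of surface ectoderm were higher for 4 of 9 compared members of a list of 20 and lower for none (median 0.75). Tfap2a, an early regulator of surface ectoderm and neural crest, measured 2.902 and 16.6 CPM (2.52), Klf5 28.1 and 114 CPM (2.02) and Grhl2, a regulator of junction genes, 4.69 and 16.9 CPM (1.85). Dlx3, a homeobox factor of skin, was the other one, at 2.89 and 8.39 CPM (1.54), chosen after its value was seen. Tfap2c, shared with trophoblast and germ cells, measured 10.4 and 10.6 CPM (0.02). Of Trp63, the p63 gene of stratifying epidermis, 0.101 and 1.23 CPM were found, under the filter. At least 2 factors of the list were found in 6.303% and 18.2% of cells thinned to 5000 UMIs, in 2.27% and 6.31% at 2500 and in 12.2% and 37.5% at 10000 UMIs, and at least 3 in 1.54% and 4.05%. Basement membrane and integrin genes added Cd9, a tetraspanin that partners integrins, at 221 and 1225 CPM (2.47) and Npnt, the integrin ligand nephronectin, at 6.54 and 35.1 CPM (2.43). Of 9 compared members 3 were at least 2-fold higher (median 0.87). Others among the 20 highest were Fabp3, a fatty acid binding protein (153 and 663 CPM (2.11)), Vnn1, a pantetheinase (19.7 and 91.3 CPM (2.21)), Ass1, an enzyme of arginine synthesis (17.9 and 83.5 CPM (2.22)), Gnai1, a G protein subunit (13.7 and 67.9 CPM (2.305)), Gipc2 (16.4 and 71.5 CPM (2.13)), Hrc (10.7 and 50.6 CPM (2.24)) and Dgka, a diacylglycerol kinase (6.42 and 31.3 CPM (2.28)).

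**Figure D3:**
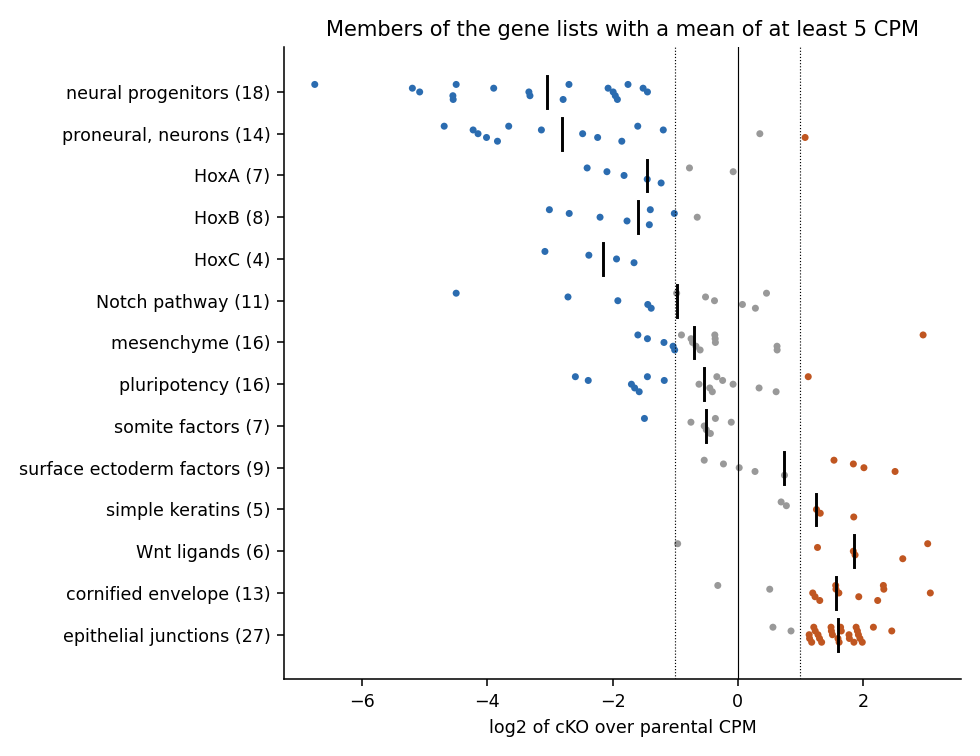
Log2 ratio of cKO over parental CPM (x axis) of each compared member of 14 gene lists (y axis, number of compared members in brackets), with the list median as a bar and the 2-fold limits dotted. All neural progenitor genes lie below the lower limit, and 25 of 27 junction genes above the upper one.

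Wnt ligands were higher, whereas Wnt targets moved in part. Of 6 compared ligands of a family of 19, 5 were at least 2-fold higher and none lower (median 1.86). Wnt6 and Wnt10a are neighbours on chromosome 1 (Wnt6 at 74771892 to 74785322 and Wnt10a at 74791516 to 74804179, both plus strand), 6.193 kb apart, and both are ligands of surface ectoderm. Wnt6 measured 62.3 CPM in the parental and 511 CPM in the cKO library, a log2 ratio of 3.04 (2.99 to 3.08), and Wnt10a 6.26 and 39.01 CPM (2.64). Wnt4 measured 27.2 and 99.9 CPM (1.88), Wnt3, a ligand of the streak, 3.46 and 12.5 CPM (1.85) and Wnt7b 13.4 and 32.3 CPM (1.28). Wnt5a, a ligand of mesenchyme, was the exception at 8.03 and 4.13 CPM (−0.96). The choice of Wnt3, Wnt7b and Wnt5a was made with their values in view. Wnt6 was found in 10.2% of parental and 54.7% of cKO cells after thinning, in 0.833% of parental neural-like cells, which should lack it, and in 45.3% of parental epithelium-like cells. In the cKO library it was found in 22.2% of 9 thinned neural-like cells and 79.6% of 652 epithelium-like cells.

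Of 13 compared Wnt targets 4 were higher and none lower (median 0.34). Sp5, a direct target, measured 12.5 CPM in the parental and 54.2 CPM in the cKO library, a log2 ratio of 2.12 (2.01 to 2.23), Notum, a secreted enzyme that inactivates Wnt ligands, 1.78 and 17.2 CPM (3.27), T (Brachyury), the regulator of the primitive streak, 4.68 and 17.3 CPM (1.88), and Bambi, a decoy receptor of BMP signals, 16.8 and 48.7 CPM (1.54). The feedback gene Axin2 measured 9.97 and 19.7 CPM (0.98) and the nuclear partner Lef1 14.4 and 12.6 CPM (−0.20), both chosen after their values were seen, and Tcf7l1, a repressor of targets, 49.8 and 52.1 CPM (0.07). Rspo3, made by presomitic mesoderm and supplied in the medium as protein, measured 7.48 and 28.5 CPM (1.93). Of 12 compared receptors and their regulators 2 were higher and 2 lower, Fzd3 and Fzd7 (20.3 and 8.89 CPM (−1.19)) being the latter. Of the antagonists, Sfrp1 was lower at 32.02 and 10.9 CPM (−1.56) besides Sfrp2.

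Hox genes, which set position along the body axis, were lower in the cKO library in 3 of the 4 clusters. Of the compared members, 5 of 7 HoxA genes (median −1.45), 7 of 8 HoxB genes (−1.59) and 4 of 4 HoxC genes (−2.16) were at least 2-fold lower, and none was higher. Of HoxD 1 gene was compared, Hoxd9, at 4.95 and 6.82 CPM (0.46). The posterior Hoxb9 had the lowest ratio of the named HoxB genes, 54.3 and 6.75 CPM (−3.01), and its neighbour Hoxb8 measured 19.96 and 3.09 CPM (−2.69). Hoxb2, an anterior gene of the hindbrain, measured 84.6 and 31.8 CPM (−1.41) and Hoxb4 59.5 and 17.5 CPM (−1.77). Hoxa2 measured 36.7 and 6.93 CPM (−2.41), Hoxa9 12.8 and 3.02 CPM (−2.09), Hoxc4 12.9 and 1.52 CPM (−3.08) and Hoxc8 19.8 and 3.81 CPM (−2.38). HoxA lies on chromosome 6 and HoxB on chromosome 11, whose genes also differed as a whole, while HoxC lies on chromosome 15, whose median log2 ratio was 0.0074. At least 2 HoxB genes were found in 28.6% and 8.64% of thinned cells (−20.0 points; −22.8 to −17.1) and in 52.4% and 20.6% of unthinned ones. For HoxA the thinned shares were 13.5% and 4.43%, and for HoxC 6.303% and 1.22%. Of the 9 compared cofactors of Hox proteins, Meis1 was lower at 63.99 and 19.1 CPM (−1.74) and the rest under 2-fold, with Meis2 at 218 and 112 CPM (−0.96).

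Somite regulators, the aim of the protocol, differed less. Of 7 compared somite factors 1 was at least 2-fold lower and none higher (median −0.50). That gene was Uncx, a factor of the posterior part of each somite, at 13.3 and 4.74 CPM (−1.49). Tcf15, which keeps somites epithelial, measured 79.7 and 56.3 CPM (−0.50), Meox1 67.5 and 40.2 CPM (−0.75), on chromosome 11, and Twist1, a regulator of mesenchyme, 52.2 and 40.8 CPM (−0.36). At least 2 somite factors were found in 20.2% and 17.5% of thinned cells (34.9% and 26.5% unthinned). Pax3 and Pax7, shared by dermomyotome and dorsal neural tube, measured 50.96 and 20.7 CPM (−1.299) and 10.7 and 0.483 CPM (−4.47). Of 16 compared mesenchyme genes 5 were lower and 1 higher (median −0.69). Vim, the filament of mesenchyme and neural progenitors, measured 1113 and 492 CPM (−1.18), Zeb1, a repressor of epithelial genes, 24.3 and 8.04 CPM (−1.59), and Sparc, a matrix protein, 457 and 707 CPM (0.63). Dcn, the matrix proteoglycan decorin, was the one that was higher, at 2.14 and 16.7 CPM (2.96).

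Of 9 compared lateral plate and cardiac genes 4 were lower and 2 higher (median −0.57), and collagens went both ways. Acta2, smooth muscle actin, measured 866 and 286 CPM (−1.597), Actc1, cardiac actin, 84.1 and 20.3 CPM (−2.05), Myl9, a smooth muscle myosin light chain, 63.1 and 16.7 CPM (−1.92), and Tagln, an actin-binding protein of smooth muscle, 997 and 689 CPM (−0.53). Col1a1, a chain of type I collagen of bone and dermis, measured 79.1 and 22.5 CPM (−1.81) and Col2a1, of cartilage and notochord, 14.7 and 4.25 CPM (−1.79), but Col11a1, which assembles with type II collagen, measured 17.2 and 80.8 CPM (2.24). Of 18 compared collagens and laminins 4 were higher and 3 lower (median 0.43). Among cytoskeletal genes of epithelia 5 of 16 were higher and none lower (median 0.60), including Cav1, of membrane caveolae (1.72 and 11.6 CPM (2.75)), Capg, an actin-capping protein (29.9 and 83.1 CPM (1.48)), and Tpm1, tropomyosin (1084 and 2352 CPM (1.12)).

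Rare populations differed as well. Of 5 compared genes of a list set up for notochord and node, all were higher (median 1.52), against 5.06% of all genes: T, Nog, a BMP antagonist (4.81 and 11.4 CPM (1.24)), Sostdc1 (3.78 and 10.9 CPM (1.52)), the glucose transporter Slc2a3 (387 and 913 CPM (1.24)) and Pomc, the precursor of several peptide hormones (8.83 and 76.4 CPM (3.11)). T and Pomc are also among the 10 leading genes of the axial-like cluster of these libraries. The list was chosen with earlier results of these data known, so the count is a description only. Slc2a3 is made by many cells, and was 1132 and 1284 CPM (0.18) in the epithelium-like class. Of 6 compared streak genes 4 were higher and 1, Lhx1 (9.05 and 1.63 CPM (−2.48)), was lower, and Fgf8, a growth factor of streak and tail bud, measured 7.52 and 15.2 CPM (1.02). The embryonic globins Hba-x, Hbb-bh1 and Hbb-y measured 177, 50.6 and 99.97 CPM in the parental library, carried by the 8 erythroid-like cells, and had no UMI in the cKO library. With 3 counts put in place of 0 over the library, Hba-x was bounded at a log2 ratio of −11.98. No cKO cell of 1650 was erythroid-like, which allows a share of up to 0.182% by 3 counts and 0.223% by the Clopper-Pearson limit, against 0.517% in the parental library. Of 16 compared pluripotency genes 7 were lower and 1 higher (median −0.53). The share of cells with at least 2 of them was 26.8% in the parental and 29.7% in the cKO library at 5000 UMIs, 48.9% and 58.6% at 10000 UMIs, and 11.7% and 9.25% for at least 3 genes, so its direction turns with the count asked for. Pou5f1, the gene of Oct4, measured 27.8 and 8.57 CPM (−1.698), Tdgf1, a Nodal coreceptor, 12.6 and 2.42 CPM (−2.39), Lefty1, a Nodal inhibitor, 13.7 and 2.27 CPM (−2.59) and Dppa5a 152 and 55.8 CPM (−1.44). L1td1, an RNA-binding protein of ESC, was the one that was higher (24.9 and 54.4 CPM (1.13)).

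The Smad genes and the BMP and TGF-beta pathways, named in the title of the series, showed few 2-fold differences. Of 6 compared Smads 1 was lower, Smad1, a transducer of BMP signals on chromosome 8, at 31.7 and 15.5 CPM (−1.03), and the median was 0.06. The shared partner Smad4 measured 76.1 and 74.1 CPM (−0.04), Smad2, a transducer of Nodal and activin, 29.9 and 33.6 CPM (0.17), Smad5 19.4 and 13.1 CPM (−0.57) and the inhibitor Smad7 21.03 and 29.7 CPM (0.50). Of 6 compared BMP ligands and antagonists 2 were higher, Bmp4 (22.8 and 55.02 CPM (1.27)) and Nog. Of 7 compared BMP targets 1 was higher, Bambi, and 1 lower, Id4, an inhibitor of differentiation factors in neural cells, at 18.5 and 2.09 CPM (−3.15), with Id2 at 98.6 and 185 CPM (0.91) and Id3 at 263 and 219 CPM (−0.26). Of 10 compared TGF-beta and Nodal genes Tgfb2 was higher (47.7 and 113 CPM (1.24)), and Lefty1 and Tdgf1 were lower. FGF pathway genes counted 1 higher, Fgf8, and 1 lower, Etv4 (9.46 and 3.85 CPM (−1.296)), of 10, and hedgehog genes 1 lower, the coreceptor Boc (15.7 and 4.22 CPM (−1.901)), of 6.

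Genes of S phase and mitosis were lower in the cKO library as lists, mostly by less than 2-fold. Over all genes the median was −0.04 and 5.46% were at least 2-fold lower. Of 20 compared S phase genes 2 were at least 2-fold lower and none higher (median −0.82), Uhrf1, which maintains DNA methylation (93.2 and 42.7 CPM (−1.13)), and the licensing factor Cdt1 (43.4 and 21.5 CPM (−1.02)). Of 20 mitosis genes 3 were lower (median −0.56): Cenpf on chromosome 1 (372 and 137 CPM (−1.44)), and Top2a (405 and 174 CPM (−1.22)) and Aurkb (104 and 40.4 CPM (−1.36)) on chromosome 11. Within somite-like cells the S phase and mitosis medians were −0.19 and −0.54, and within epithelium-like cells −0.31 and −0.49. The 2 libraries differ in the mix of the 2 epithelium-like clusters. Within cluster 4 alone the S phase and mitosis medians were −0.11 and 0.02, and within cluster 8 alone −0.27 and −0.24. Ccnd2, cyclin D2 on chromosome 6, measured 311 CPM in the parental and 55.6 CPM in the cKO library, a log2 ratio of −2.48 (−2.53 to −2.43). It measured 63.8 and 9.14 CPM (−2.803) in ESC and 101 and 31.4 CPM (−1.68) at day 3. The cyclin-dependent kinase inhibitors Cdkn1a and Cdkn2b measured 139 and 372 CPM (1.42) and 16.4 and 43.7 CPM (1.42). Mycn, a transcription factor that drives growth of progenitors, measured 24.1 and 8.82 CPM (−1.45) and Mycl 24.4 and 7.35 CPM (−1.73). The RNA-binding Igf2bp2 and the chromatin protein Hmga1 measured 86.3 and 41.4 CPM (−1.06) and 86.1 and 32.5 CPM (−1.41), and Ezh2, the enzyme of Polycomb repression, 269 and 120.3 CPM (−1.16).

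Stress genes were higher in part. Of 16 compared p53 targets 6 were higher and none lower (median 0.80), led by Perp, Trp53inp1 (35.05 and 103 CPM (1.56)) and Cdkn1a, with the apoptosis gene Bax at 413 and 719 CPM (0.80). Of 13 compared immediate early genes 7 were higher and none lower (median 1.01), among them Fos (18.1 and 60.6 CPM (1.75)), Zfp36 (11.1 and 29.4 CPM (1.404)) and Nr4a1 (2.86 and 8.71 CPM (1.61)). These genes can be induced during dissociation of cells, and handling of the 2 samples cannot be told apart from genotype. Only 4 and 5 of the 13 passed 2-fold in cells of neither chromosome group and under the stricter cell filter. Of all genes, 2.99% and 4.97% were at least 2-fold higher in these 2 settings. Of 13 compared stress response genes 3 were higher (median 0.62), including the small heat shock protein Hspb1 (292 and 815 CPM (1.48)) and Ddit3 (16.8 and 36.9 CPM (1.13)). Glycolysis and hypoxia genes had 1 of 20 higher and 1 lower (median −0.46), with Pdk1, which limits entry of pyruvate into mitochondria, at 36.8 and 17.02 CPM (−1.11). None of 20 genes of oxidative phosphorylation (0.09) and none of 21 ribosomal protein genes (−0.22) passed 2-fold.

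A difference in library CPM can come from more cells with the gene or from more transcripts per cell. On cells thinned to 5000 UMIs, the log2 ratio of the share of cells with a UMI was larger than that of the UMIs per positive cell for 18 of the 20 highest and 19 of the 20 lowest genes. The medians were 2.05 for the share and 0.13 for the level among the highest genes, and −4.48 and −0.31 among the lowest. In both libraries 15 of the highest and 11 of the lowest genes had under 2 UMIs per positive cell, where the level cannot go below 1 and the share follows the level, so the 2 sources cannot be told apart for them. Pomc was different: it was found in 3.31% of parental and 3.82% of cKO cells, with 1.35 and 11.1 UMIs per positive cell. Cd9 changed in both, from 28.8% to 67.1% of cells and from 2.96 to 7.01 UMIs per positive cell. Crabp1 was found in 42.9% of parental and 3.899% of cKO cells, with 11.4 and 3.65 UMIs per positive cell, and Sox2 in 34.1% of parental and 3.06% of cKO cells. Genes present in nearly all cells, such as Pkm (99.8% and 99.4%), could differ only in level.

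**Figure D4:**
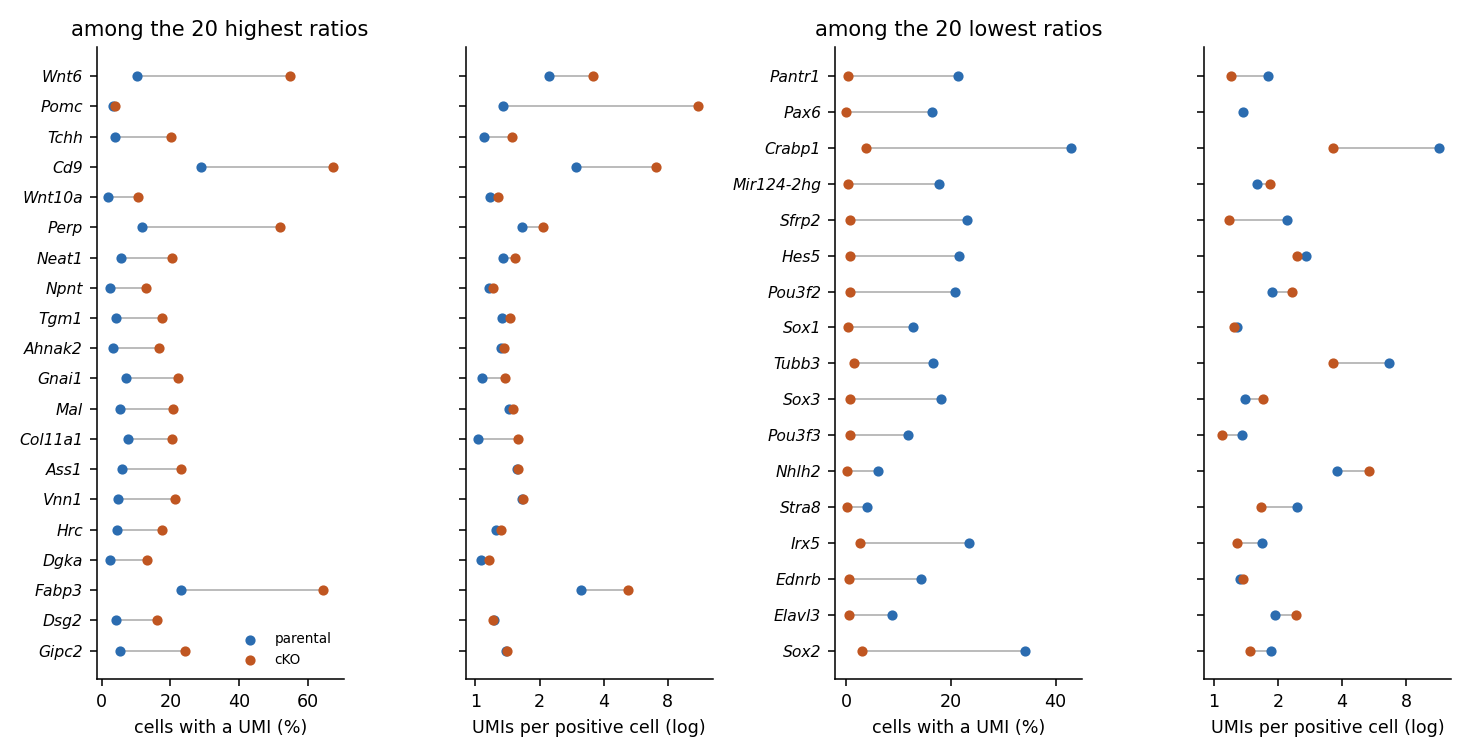
For the genes named in the text among the 20 highest (left pair of panels) and the 20 lowest (right pair), percentage of thinned cells with a UMI and UMIs per positive cell (log axis) in the parental and the cKO library. Most levels lie near the floor of 1 UMI, and Pomc differs in level and not in share (1.35 and 11.1 UMIs per positive cell). Pax6 has no cKO point for the level because no thinned cKO cell held it.

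Within the somite-like cells, where the 2 libraries have similar numbers of cells (222 and 235) and depth (medians of 47193 and 43663 UMIs), 9352 genes were compared and 231 (2.47%) were at least 2-fold higher and 126 (1.35%) at least 2-fold lower in cKO. The class is not matched in chromosome balance: 82.9% of its parental and 9.36% of its cKO cells had chromosome 11 high. The part of that balance in the ratios of the class was not tested. All 15 of the 20 highest genes that were compared there were at least 2-fold higher (median 2.36), from Col11a1 at 16.3 and 33.2 CPM (1.03) to Vnn1, which had 1 UMI in the parental and 142 in the cKO cells (7.12; 4.62 to 12.44). Wnt6 measured 13.4 and 114 CPM (3.09), Perp 3.99 and 68.2 CPM (4.097) and Cd9 30.9 and 139 CPM (2.17). At a finer clustering (Leiden resolution 1.2) the 231 genes became 138, and Col11a1 turned to −0.17. Free RNA from lysed cells reaches every droplet, and the cKO library holds more RNA of these genes as a whole. For these 15 genes the somite-like level was a median of 21.6% of the whole-library CPM in parental (0.396% to 247%) and 24.2% in cKO (11.3% to 118%). Wnt6 was found in 5.02% of parental and 21.6% of cKO somite-like cells. How much of that is free RNA was not tested, so it is not read as expression by somite-like cells. The p53 targets outside the epithelial group also differed, Trp53inp1 (20.6 and 80.01 CPM (1.96)) and Cdkn1a (78.002 and 297 CPM (1.93)), in a list with 7 of 16 members higher (median 0.93).

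Hox genes of 3 clusters, lower in the whole library, were closer in the somite-like cells. Of the named HoxA, HoxB and HoxC genes 13 were compared there. They were named for a large whole-library ratio or a high level, and all 13 were lower in the whole library (median −2.09). Within the class their median was −0.20, with 1 gene at least 2-fold lower, Hoxb9 (40.7 and 18.9 CPM (−1.11)), and none higher. Over all compared members, the HoxA, HoxB and HoxC medians were −1.45, −1.59 and −2.16 in the whole library. Within the class they were 0.20, −0.20 and 0.012. Of HoxD 2 of 3 compared genes were at least 2-fold higher there (median 1.11), with Hoxd9 at 12.2 and 19.6 CPM (0.68). Hoxb2 measured 99.5 and 131 CPM (0.40), Hoxa2 26.3 and 30.3 CPM (0.20) and Hoxc9 12.3 and 19.9 CPM (0.69). Ccnd2 measured 88.9 and 73.4 CPM (−0.28) and Ptn 457 and 516 CPM (0.18). Of the 20 lowest genes 6 were compared and 2, Sfrp2 and Tubb3 (12.4 and 1.76 CPM (−2.82)), were at least 2-fold lower, with Crabp1 at 58.2 and 41.6 CPM (−0.49) and Sox2 at 8.21 and 7.21 CPM (−0.19). Meox1 and Tcf15, which define the class, measured 257 and 183 CPM (−0.49) and 252 and 262 CPM (0.06), and Pax3 54.01 and 80.5 CPM (0.58). Of the muscle genes, Acta2 measured 720.1 and 160.2 CPM (−2.17), Actc1 69.7 and 16.7 CPM (−2.06) and Myl9 88.3 and 31.6 CPM (−1.48), in the lateral plate and cardiac list with 5 of 8 members lower and 1 higher (median −1.46).

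Within the epithelium-like cells (201 and 658, medians of 59719 and 58235 UMIs) 9264 genes were compared, and 113 (1.22%) were at least 2-fold higher and 134 (1.45%) at least 2-fold lower in cKO. This class too is not matched in chromosome balance, with chromosome 11 high in 59.7% of its parental and 3.5% of its cKO cells. Of the 20 highest genes 19 were compared and 11 were at least 2-fold higher (median 1.05). The keratins and junction genes had medians of −0.36 and 0.22 with no member past 2-fold. Several of them define the class, so close levels there can follow from the choice of cells and are not a result. Tfap2a measured 2.91 and 23.04 CPM (2.98), Notum 3.77 and 21.7 CPM (2.53), Sp5 13.8 and 48.1 CPM (1.802), Gnai1 19.7 and 84.6 CPM (2.103), Tchh 30.7 and 109 CPM (1.82), Wnt6 269 and 713 CPM (1.41) and Cd9 838 and 1768 CPM (1.08). The cKO cells of the class come evenly from clusters 4 and 8 and the parental cells mostly from cluster 4. Within cluster 4 the log2 ratios were 3.54 for Tfap2a, 2.75 for Notum, 1.94 for Sp5, 1.65 for Wnt6 and 1.06 for Cd9. Within cluster 8 they were 1.58, 1.84, 1.81, 0.61 and 0.53. Lower in the class were Stra8, a meiosis gene (22.7 and 0.135 CPM (−7.400)), Dppa5a (20.04 and 1.32 CPM (−3.92)), Acta2 (357 and 105 CPM (−1.76)) and Col1a1 (31.4 and 9.26 CPM (−1.76)). Pluripotency genes had 5 of 12 members lower there and none higher.

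**Figure D5:**
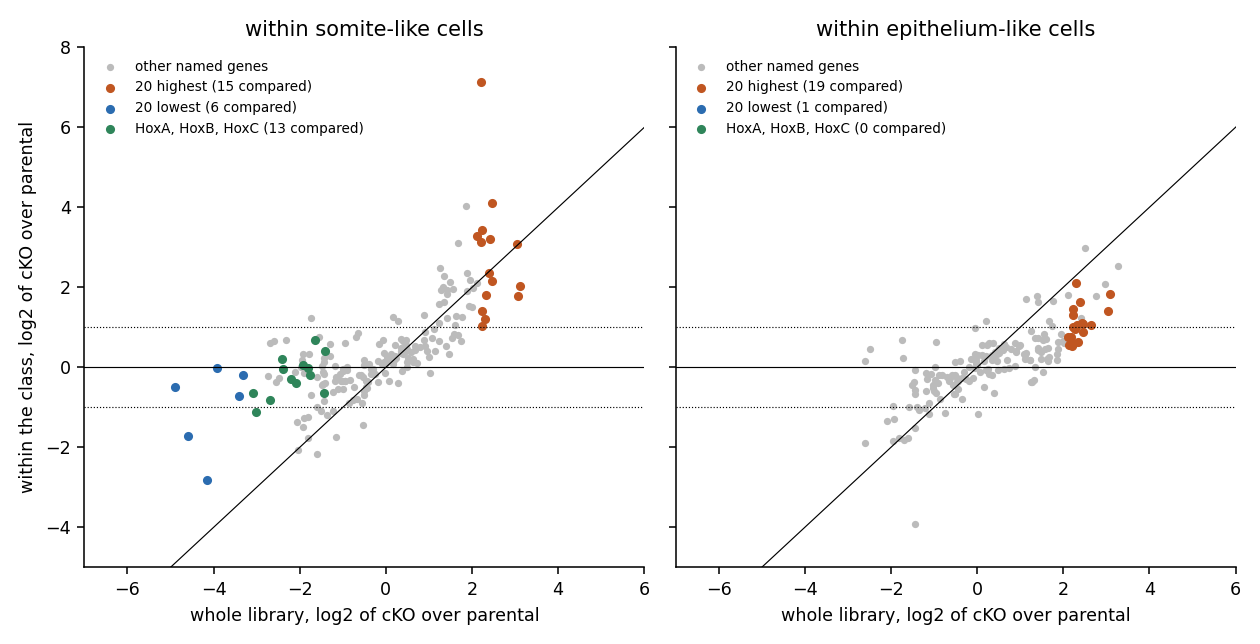
Log2 ratio of cKO over parental of the named genes in the whole library (x axis) and within somite-like (left) and epithelium-like cells (right; y axis), with the diagonal and the 2-fold limits as lines. The named HoxA, HoxB and HoxC genes were picked in part for a large whole-library ratio. In somite-like cells they lie near 0 on the y axis (median −0.20) and left of 0 on the x axis (median −2.09). The 15 compared genes of the 20 highest lie above the upper limit there.

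Of all genes 8644 were compared in both classes, and 36 (0.416%) were at least 2-fold higher and 31 (0.359%) lower in both. Of the named genes, most of them picked for a large ratio in the whole libraries, 152 were compared in both. At least 2-fold higher in both were 13 of them, 13 of the 40 higher in somite-like and of the 17 higher in epithelium-like cells: Ahnak2, Ass1, Cd9, Col11a1, Ddx3y, Gnai1, Hrc, Neat1, Npnt, Sp5, Tchh, Uty and Wnt6. Of these, Sp5 measured 14.5 and 62.7 CPM (2.12) in somite-like cells and Neat1, a nuclear noncoding RNA, 7.03 and 36.2 CPM (2.36), against 30.6 and 95.5 CPM (1.64) in epithelium-like cells. At least 2-fold lower in both were 5, of 7 in somite-like and 10 in epithelium-like cells: Acta2, Myl9, and Aurkb, Col1a1 and Top2a, the last 3 on chromosome 11. Top2a measured 487 and 228 CPM (−1.097) and 329 and 163 CPM (−1.01) in the 2 classes, and Col1a1 139 and 41.1 CPM (−1.76) in the somite-like class.

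The chromosome groups of the parental library differ in cell type: 59.0% of its neural-like cells had chromosomes 1, 6 and 8 high, whereas 82.9% of its somite-like and 59.7% of its epithelium-like cells had chromosome 11 high. Pax6 measured 79.9, 19.1 and 32.5 CPM in the parental cells with chromosomes 1, 6 and 8 high, with chromosome 11 high and in neither group, in that order, and each was above the whole cKO library at 0.351 CPM. Wnt6 measured 48.6, 29.5 and 150.5 CPM in those 3 groups and 530.1, 139.6 and 535 CPM in the cKO groups. Krt8 measured 242, 879 and 1022 CPM and 1949.6, 831 and 1927 CPM, Hoxb4 78.7, 49.1 and 60.7 CPM and 12.8, 28.7 and 16.8 CPM, and Tcf15 26.9, 103 and 88.8 CPM and 7.19, 138 and 51.95 CPM. Eif2s3y measured 6.04, 58.4 and 44.3 CPM and 197, 130.1 and 132 CPM.

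In cells of neither group, 272 parental and 1447 cKO cells, all 17 compared neural progenitor genes were at least 2-fold lower (median −3.42), 18 of 27 junction genes were higher (1.16) and 6 of 7 HoxB genes lower (−1.85). Of the keratins 1 of 5 was higher (0.75) and of the Wnt ligands 4 of 6. In these cells 2.99% of all compared genes were at least 2-fold higher and 4.88% at least 2-fold lower. With all cKO cells set against parental cells with chromosome 11 high, the neural median was −2.54 (14 of 15 lower). The junction median was 1.54 (23 of 27 higher) and the somite median −0.92. Over all genes of that comparison 4.89% were higher and 4.11% lower. Groups were not matched there. Between cKO and parental cells that both had chromosome 11 high, Crabp1, Sox2, Hes5 and Tubb3 were under 2-fold apart. Pax6 was lower in the cKO cells of that group, and the levels are given in the last paragraph. No list median was taken between these cells, so the few genes given do not stand for the neural list. With all cKO cells set against parental cells with chromosomes 1, 6 and 8 high, 10.7% of all genes were higher and 10.6% lower. The somite median was 2.39 there, with 6 of 7 members higher, and the lateral plate and cardiac median 1.57. The direction of the mesodermal lists thus turns with the parental cells chosen. Over all genes the median log2 ratio was −0.31 for chromosome 11, with 11.03% of its genes at least 2-fold lower, −0.23 for chromosome 8, −0.22 for chromosome 6, −0.15 for chromosome 1 and −0.14 for chromosome 16. For the other autosomes it lay between −0.0072 and 0.05. Of the 20 highest genes 3 and of the 20 lowest 6 lie on chromosomes 1, 6, 8 or 11, which hold 24.3% of the compared genes.

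Of the genes named here, 161 were at least 2-fold different in the whole libraries, and 118 of them stayed past 2-fold in the same direction under each of 10 other ways to choose and weigh the cells. The call ended in cells of neither chromosome group for Actc1, Bmp4, Cdt1, Cldn6, Dppa5a, Epha1, Etv4, Fgf8, Krt18, Krt8, Lefty1, Pdk1, Peg10, Rarg, Slc2a3, Sostdc1, Sox17, Tgfb2, Tpm1, Vim and Wnt7b. Against parental cells with chromosome 11 high it ended for Cdkn1c, Cdkn2b, Cdt1, Cenpf, Dll3, Dppa5a, Epha1, Etv4, Ezh2, Fzd7, Gap43, Grb10, Igf2bp2, Mycl, Nog, Nrarp, Pax3, Peg10, Sfrp1, Smad1, Tpm1 and Uncx. Against parental cells with chromosomes 1, 6 and 8 high it ended for Acta2, Actc1, Col1a1, Ddit3, L1td1, Ntn1 and Phlda2. Under another scaling, weighting, depth or cell filter it ended for Cdt1, Ddit3, Epha1, Fgf8, Igf2bp2, Pdk1, Peg10, Phlda2, Smad1, Vim and Wnt7b, whose log2 ratios in the whole libraries lay between −1.18 and 1.38.

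At the earlier stages, where each cKO library was compared with its own parental library, part of the extreme genes of day 6 could be compared. Of the 20 highest genes 13 reached 5 CPM in ESC and 11 at day 3, and 1 of these, Fabp3 in ESC, was at least 2-fold higher there. Wnt6 had log2 ratios of 0.22 and 0.31 at the 2 stages and Cd9 of 0.67 and −0.22. Of the 20 lowest, none of 4 in ESC and 2 of 9 at day 3, Crabp1 (−1.02) and Sox1 (−1.303), were at least 2-fold lower. Sox2 was −0.13 and −0.09, against −3.32 at day 6. Sp5 and T, higher at day 6, were −0.31 and −0.31 at day 3.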

How the data were processed

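Droplet single-cell RNA sequencing libraries of 2 genotypes were analysed at day 6, with the ESC and day 3 libraries for reference. Per the submitters' processing notes and the file headers, the authors made UMI counts per gene and barcode with Cell Ranger 3.1.0 on mm10, and the deposited counts are whole numbers for 31053 genes. No deposited cell annotation was used. Intron and strand settings are not given in the sources used here, so reads of a gene and an overlapping antisense gene may not be told apart.

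Cells were barcodes in which 1000 or more genes were found and no more than 10% of UMIs were mitochondrial. UMIs were summed per library and scaled to a library sum of 1000000 (CPM), with exact Poisson intervals. Log2 ratios of cKO over parental carry exact conditional binomial intervals, and a level of 0 was set to a floor of 3 counts. Genes with a mean of at least 5 CPM were compared, and a 2-fold ratio was counted. Named were Pou2f1, the 20 highest and 20 lowest ratios (mean of at least 10 CPM, UMIs in at least 5% of cells of the higher library, 1 CPM added for ranking, without mitochondrial, ribosomal protein and unnamed genes), and from each of 64 gene lists the 3 largest ratios and 2 highest levels. A few genes are not reported here. The cells compared, the lists and the rule were chosen with earlier results of these data known.

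Cells of both libraries were clustered with scanpy 1.11.5 (2000 variable genes, 30 components, 15 neighbours, Leiden resolution 0.8, igraph 0.11.9), without batch correction. A cluster was named "-like" from at least 3 markers of a fixed list, if no other class had more markers among its 10 leading genes. The clusters with a median depth under 0.333 of their libraries' stayed unnamed. No doublet caller was run and doublets were not removed. The ratio step was tested on simulated counts with known changes. Other tools were Python 3.11.15, numpy 2.4.6, scipy 1.17.1, pandas 2.3.3 and matplotlib 3.10.9. Alternative scalings used TMM factors of edgeR 4.0.16 and size factors of DESeq2 1.42.0 in R 4.3.3, with no test. Gene positions came from the mm10 annotation for 30934 of the genes, and promoters from RefSeq (GRCm38.p6).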

Additional observations from a re-analysis of the deposited data

How the results depend on the processing

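Differences were recomputed for other cell filters, scalings, depths, clusterings and subsets of cells, 3014 values in all. The parental chromosome subsets and the version without the clusters of low depth were chosen after seeing the data. Of 143 list medians 132 stayed within the limits set around the reported value, while 987 of 1850 values of single genes, 354 of 924 values within classes and 28 of 55 shares of cells moved beyond theirs. Of genes past 2-fold, 6 values in the libraries and 5 within classes turned in sign. The 486 higher and 524 lower genes became 288 higher ones in cells of neither chromosome group, 1032 and 1025 against parental cells with chromosomes 1, 6 and 8 high, 258 and 155 with a mean of at least 20 CPM, 777 and 1099 with at least 1 CPM, and 1881 and 2744 with no filter, the last 3 by construction of the filter. The cause of the other changes was not tested.

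Against parental cells with chromosomes 1, 6 and 8 high, list medians were −4.41 (proneural), 2.94 (keratins), 2.53 (junctions), 2.39 (somite) and 0.0555 (mesenchyme), and Acta2 (0.70), Actc1 (2.03) and Col1a1 (1.198) turned. Against those with chromosome 11 high the proneural median was −0.82 and Grb10 (0.67) and Cdkn1c (0.54) turned. In cells of neither group the junction median was 1.16, the pluripotency median 0.0220 and the ratio of Fgf8 −0.47. The somite median was −0.0855 with equal weight per cell and −0.0012 with cells thinned to 10000 UMIs, where the mesenchyme median was −0.34.

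The difference in cells with neural genes was −38.0 points at 2500 UMIs, −48.0 under the stricter filter and −34.2 in cells of neither group. For keratins it was 51.2 at 10000 UMIs, 43.5 with at least 3 genes and 30.7 in cells of neither group, and for HoxB −8.74 at 2500 UMIs, −30.7 at 10000 and −9.08 with at least 3 genes. Within the somite-like class the higher genes numbered 138 at Leiden resolution 1.2. At 0.4 the ratios of Cdkn2b (−0.15), Hspb1 (−0.66) and S100a6 (−0.27) turned, and at 1.2 those of Col11a1 (−0.17) and S100a6 (−0.23).

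No paired analysis was possible because each genotype has 1 library at day 6. Leaving out a library would leave a genotype with none. With 69274012 UMIs in the parental and 68286951 in the cKO library, counting error is widest for genes near the 5 CPM filter. Variation between cultures was not measured.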

Other observations

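Several gene groups that the report does not describe also differed between the libraries. Levels are given for parental and then cKO cells, with the log2 ratio of cKO over parental. Imprinted genes, expressed from 1 parental copy, went both ways, with 3 of 23 compared members at least 2-fold higher, 5 lower and a median of −0.03. Grb10, a growth inhibitor on chromosome 11, measured 55.2 and 11.1 CPM (−2.32) and Igf2r, which clears the growth factor Igf2, 20.4 and 6.77 CPM (−1.59). Higher were Phlda2, a growth limiter of the placenta, at 9.11 and 23.7 CPM (1.38), and Peg10, a gene of retrotransposon origin, at 111 and 225 CPM (1.02). Cdkn1c, a growth inhibitor, measured 276 and 112 CPM (−1.303) and Ndn, a protein of neurons, 81.6 and 32.1 CPM (−1.35). Against parental cells with chromosome 11 high the ratios of Grb10 and Cdkn1c turned to 0.67 and 0.54. Peg10, Cdkn1c, Ndn and Epha1 were chosen after their values were seen. Of 17 compared ephrin and guidance genes 6 were lower and 1 higher (median −0.38), with Ntn1, the secreted cue netrin, at 20.3 and 5.78 CPM (−1.81), Efnb3 at 8.13 and 2.91 CPM (−1.48) and the higher one, Epha1, a receptor of ephrins, at 5.08 and 10.2 CPM (1.01).

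Of 14 compared genes of metal and lipid handling 4 were higher and 1 lower. The lipoproteins Apoe and Apoc1 measured 361 and 920.2 CPM (1.35) and 18.4 and 58.3 CPM (1.66), respectively. The fatty acid binding proteins moved apart, with Fabp5 at 334 and 77.9 CPM (−2.102) and Fabp3 at 153 and 663 CPM (2.11). Of 6 compared neural crest genes Tfap2b was lower at 19.5 and 1.44 CPM (−3.76) and Erbb3, which epithelia also express, higher at 6.16 and 22.8 CPM (1.88). Single genes of rare lineages were Esx1, a factor of the placenta, at 2.73 and 14.6 CPM (2.42), Sox17, of endoderm and vessels, at 2.58 and 8.93 CPM (1.79), and Cxcr4, a chemokine receptor, at 12.4 and 1.29 CPM (−3.27).

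The cKO cells with chromosome 11 high are 150 of 1650 cells, and 13 of the 18 cKO cells of the neural-like and neuron-like classes (72.2%; 46.5 to 90.3, Clopper-Pearson), whereas 141 of the 582 parental cells of these classes (24.2%) had chromosome 11 high. Crabp1 measured 239.8 CPM in these 150 cells, 10.9 CPM in the cKO cells of neither group and 233 CPM in the parental cells with chromosome 11 high. In the same order Sox2 measured 51.1, 8.68 and 63.8 CPM, Hes5 55.9, 0.572 and 38.9 CPM, and Tubb3 55.4, 5.21 and 51.4 CPM. Tcf15 measured 138, 51.95 and 103 CPM. Pax6 measured 3.16, 0.175 and 19.1 CPM and Eif2s3y 130.1, 132 and 58.4 CPM. These cells were noticed in the data and no test was run on them.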
